A study of Rattus norvegicus with 3 samples.

Results

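A set of 7 genes of lipid supply, namely Apoe, Scd2, Scd, Hmgcs1, Sqle, Dhcr7 and Srebf2, was examined in hippocampal RNA sequencing of rats. They were chosen by name, and their rows were found by NCBI gene identifier among the 18560 genes counted. All 7 genes had a row in the table of replicate 2 and none in those of replicates 1 and 3, which hold only the first 12 and 307 genes of the same order. Each member is therefore known from 1 library of 15417009 counts, with no spread between samples. The 3 samples form 1 group: hippocampus of healthy rats, wild type by genotype, dosed by gavage for 28 days with Q808, a candidate drug against seizures that is known here only by this code. The labels state no strain, age or dose, and no untreated sample was analysed here, so no value below measures a change caused by Q808. The labels do not say whether each sample is a separate animal. The count columns carry the prefix Con_Q, which the labels do not explain, and the group was taken from the sample labels.

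The brain makes its own cholesterol, because lipoproteins of the blood hardly cross the blood-brain barrier. Acetyl-CoA is built up through mevalonate (Hmgcs1 acts early in this arm) to squalene, which Sqle turns into an epoxide before ring closure. Dhcr7 reduces 7-dehydrocholesterol to cholesterol. The transcription factor SREBP-2, encoded by Srebf2, switches this pathway on when membrane sterol is low. Astrocytes load cholesterol onto particles of apolipoprotein E, and the stearoyl-CoA desaturases Scd and Scd2 supply the monounsaturated fatty acids of membrane lipids and myelin.

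The promoter windows below, from RefSeq on assembly GRCr8, are shown because they set the neighbouring desaturase genes Scd2 and Scd, whose counts lay 73.1 times apart, beside the pathway gene Hmgcs1 and its regulator gene Srebf2. Each window runs 5′ to 3′ on the strand of the gene, from 250 bases before a transcript start to 50 bases after it. Capitals mark CCAAT, the letters bound by NF-Y, and GGGCGG, the letters bound by Sp1, on either strand, so that ATTGG and CCGCCC are the same letters on the other strand. The labels name no build for the counts, and the start that each transcript used was not measured.
Scd2, chr1:253118127-253118426, plus strand: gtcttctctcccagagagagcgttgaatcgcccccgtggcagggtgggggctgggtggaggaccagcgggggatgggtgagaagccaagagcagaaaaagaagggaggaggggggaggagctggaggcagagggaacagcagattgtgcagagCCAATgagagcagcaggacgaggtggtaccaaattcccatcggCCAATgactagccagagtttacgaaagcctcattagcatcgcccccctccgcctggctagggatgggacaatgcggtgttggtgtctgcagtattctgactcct
Scd, chr1:253231682-253231981, minus strand: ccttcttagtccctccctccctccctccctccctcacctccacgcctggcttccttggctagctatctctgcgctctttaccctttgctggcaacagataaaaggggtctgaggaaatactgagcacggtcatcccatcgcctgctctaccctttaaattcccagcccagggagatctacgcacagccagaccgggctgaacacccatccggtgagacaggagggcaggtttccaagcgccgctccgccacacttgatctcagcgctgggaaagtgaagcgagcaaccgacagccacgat
Hmgcs1, chr2:53382054-53382353, plus strand: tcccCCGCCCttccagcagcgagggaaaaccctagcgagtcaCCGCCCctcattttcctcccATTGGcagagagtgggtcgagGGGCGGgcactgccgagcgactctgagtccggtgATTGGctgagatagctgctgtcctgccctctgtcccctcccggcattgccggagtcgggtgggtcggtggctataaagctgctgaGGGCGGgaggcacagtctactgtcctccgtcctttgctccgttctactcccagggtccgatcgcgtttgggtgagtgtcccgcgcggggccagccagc
Srebf2, chr7:115543057-115543356, plus strand: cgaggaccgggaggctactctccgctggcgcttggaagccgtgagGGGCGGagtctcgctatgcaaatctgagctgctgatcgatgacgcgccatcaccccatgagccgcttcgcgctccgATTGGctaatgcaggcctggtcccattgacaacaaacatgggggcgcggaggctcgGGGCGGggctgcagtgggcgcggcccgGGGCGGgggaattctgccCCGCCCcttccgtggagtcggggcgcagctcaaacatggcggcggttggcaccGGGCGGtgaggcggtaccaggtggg

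The window of Scd2 held 2 CCAAT matches, starting 97 and 54 bases before the start, and that of Scd held neither motif. The Hmgcs1 window held 2 CCAAT and 4 GGGCGG matches, and the Srebf2 window held 1 and 5. Apoe had 3 windows in the table, at different starts, and 2 of them, which overlap, held the same CCAAT match and the same 2 GGGCGG matches. Dhcr7 had 2 overlapping GGGCGG matches, 39 and 34 bases before the start, and no CCAAT, while Sqle had no window. In all, 4 of the 6 genes with a window held CCAAT and 4 held GGGCGG, while 39.8% and 44.1% of protein-coding genes with windows did so in at least 1 of them. Of the 18 cholesterol synthesis genes with a window, 14 held CCAAT and 14 held GGGCGG. The letters TCACNCCAC of a sterol regulatory element core were in the windows of 1.14% of protein-coding genes and in none of these 6 or 18, which says only that these letters are not in these windows. No binding was measured here, and a match is not a bound site. Whether these motifs bear on the counts of any gene was not tested.

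Apoe and Scd2 were among the 10 genes with the most counts, and Scd2 had 7.90 times the counts (7.68 to 8.13) of the next member, Hmgcs1. All 7 members reached the 10 counts set as the minimum for detection, which 77.0% of all genes of the table reached. Together they took 0.704% of all counts (95% exact Clopper-Pearson interval 0.700% to 0.708%), of which Apoe and Scd2 gave 0.629% and the other 5 genes 0.0751%. Levels below are counts scaled to the library total (CPM) with such intervals, which cover counting error only. No transcript lengths were used, so the order of different genes is one of read yield and not of molecules. In whole tissue, fewer cells of a type and less RNA per cell cannot be told apart.

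Apoe (gene 25728), the lipid carrier secreted mainly by astrocytes, had 53689 counts in replicate 2, or 3482 CPM (3453 to 3512). It ranked 2 of 18560 genes by counts. Among 14 rows with a plain apolipoprotein product name, Apoe took 93.9% of the counts, and 7 rows were detected (77.0% of all genes were). This name rule leaves out Clu, which encodes the apolipoprotein clusterin and had 923 CPM. Apoe had 3.77 times the counts of Clu (3.70 to 3.84). Within the 14 rows, Apod, which carries small lipophilic molecules, came next with 171 CPM. Apoo, a mitochondrial inner membrane gene, followed with 30.6 CPM. A row with the product apolipoprotein C1, whose identifier had no match in the RefSeq table, had 342 counts (22.2 CPM). The plasma apolipoprotein gene Apoa1 had 6 counts. Apoa2, Apoa4, Apoc3, Apoh and Apon were at 0 counts, a result that a level of up to 0.195 CPM could give.

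Apoe is also a major product of liver and is made by microglia and vessels. The liver marker gene Alb (albumin) had 4 counts, and of the 4 liver markers with a row only Ttr, which choroid plexus also makes, exceeded 1 CPM, at 176 CPM. All 6 astrocyte markers were detected (77.0% of all genes were), from 379 CPM (Gja1) to 1170 CPM (S100b). The 5 microglia markers ranged from 10.6 CPM (Cx3cr1) to 130 CPM (Ctss), and the 4 endothelial markers from 12.8 CPM (Pecam1) to 140.3 CPM (Slc2a1). The 5 markers of hippocampal fields lay between 136 CPM (Prox1) and 276 CPM (Cpne4). Of the 5 choroid plexus markers, 4 were detected and all but Ttr stayed under 5 CPM, at 4.15 CPM (Clic6) or less. All 6 oligodendrocyte markers, genes of the myelin that Scd2 products help to build, were detected, from 108 CPM (Mog) to 5578 CPM (Mbp), and the 5 neuron markers lay between 137 CPM (Rbfox3) and 2479 CPM (Snap25). What part of the reads of Apoe or Scd2 each cell type gave was not tested.

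**Figure D1:**
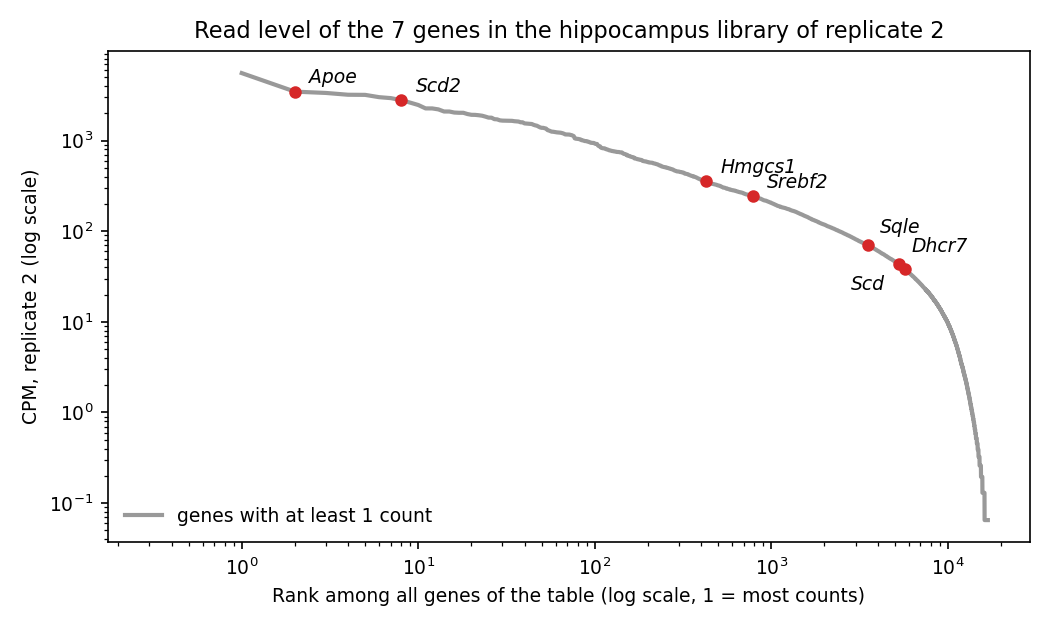
The horizontal axis gives the rank of each gene by counts in replicate 2 and the vertical axis its CPM, both on log scales. The grey line holds all genes with at least 1 count and the red points the 7 members with their 95% counting intervals, which are smaller than the points. Apoe and Scd2 stand at the left end, and Sqle, Dhcr7 and Scd lie between 38.3 and 70.3 CPM.

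Scd2 (gene 83792), the stearoyl-CoA desaturase of brain in rodents, had 43226 counts, or 2804 CPM (2777 to 2830), and ranked 8. Scd (gene 246074, also called Scd1), the form known from liver and fat, had 591 counts, or 38.3 CPM (35.3 to 41.6), and ranked 5690. The counts of Scd2 were 73.1 times those of Scd (67.4 to 79.5). In RefSeq GRCr8 the genes lie next to each other on chromosome 1 with only Scd4 between them. Scd4 had 1 count, or 0.0649 CPM (0.00164 to 0.361), and Scd3 had 32 counts, or 2.08 CPM. Scd2 thus took 98.6% of the 43850 counts of the 4 stearoyl desaturase rows, and Scd 1.35%. The labels do not say how reads matching several of these related genes were assigned, so the low values of Scd, Scd3 and Scd4 are uncertain.

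The other desaturase and elongase genes ranged from no count to 156 CPM. Of 9 listed desaturase genes, a list without Scd3, 8 reached detection. The median over the detected ones was 46.5 CPM, against 25.2 CPM over all 14295 detected genes. With Scd3 (2.08 CPM) in the list this desaturase median would be lower. After Scd2, the highest was Fads1 (156 CPM), which introduces double bonds into polyunsaturated fatty acids, and the lowest detected gene of the list was the sphingolipid desaturase gene Degs2 (4.99 CPM). Among 7 elongase genes 6 reached detection, and their median was 58.3 CPM. Elovl5 (107 CPM) and Elovl4 (72.3 CPM), which act on polyunsaturated and very long chains, were the highest. Elovl6, which elongates palmitate to the stearate that Scd enzymes use, had only 11 counts (0.713 CPM, 0.356 to 1.28), and Elovl3 had none. All 9 genes of fatty acid synthesis reached detection, and their median was 64.5 CPM, led by the fatty acid synthase gene Fasn (320.0 CPM) and the ATP citrate lyase gene Acly (242 CPM). The lowest were Acacb (11.2 CPM), the acetyl-CoA carboxylase gene tied to mitochondria, and the citrate carrier gene Slc25a1 (37.6 CPM).

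Hmgcs1 (gene 29637), the cytosolic HMG-CoA synthase, had 5469 counts, or 355 CPM (345 to 364), and ranked 428. It was the highest of the 9 mevalonate genes with a row and took 48.9% of their counts (48.0% to 49.9%). Fdps, which makes farnesyl diphosphate, had 89.6 CPM. The lowest of the arm were the thiolase gene Acat2 (18.2 CPM) and the mevalonate kinase gene Mvk (21.9 CPM). All 9 genes reached detection (77.0% of all genes did), with a median of 40.6 CPM.

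Sqle (gene 29230), the squalene epoxidase, had 1084 counts, or 70.3 CPM (66.2 to 74.6), and ranked 3522. Dhcr7 (gene 64191), the 7-dehydrocholesterol reductase, had 667 counts, or 43.3 CPM (40.04 to 46.7), and ranked 5268. They took 8.26% and 5.08% of the counts of the 13 sterol genes. The highest genes of this arm were the lanosterol demethylase gene Cyp51 (194 CPM), the desaturase gene Sc5d (146 CPM) and the methyl oxidase gene Msmo1 (137 CPM). The lowest were the sterol isomerase gene Ebp (10.1 CPM) and Lbr (8.04 CPM), which encodes a nuclear envelope protein with sterol reductase activity. All 13 genes reached detection (77.0% of all genes did), with a median of 43.3 CPM.

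Both arms together gave 24296 counts over 22 detected genes of 22 with a row (77.0% of all genes were detected). The 22 genes had a median of 43.0 CPM and a range of 8.04 to 355 CPM. Of these genes 4 reached 100 CPM, namely Hmgcs1, Cyp51, Sc5d and Msmo1, where 13.1% of all genes of the table did. Hmgcs1 had 5.05 times the counts of Sqle (4.73 to 5.39), and Sqle 1.63 times those of Dhcr7 (1.47 to 1.79). By the pathway names that the deposited rows carry, 15 of 17 steroid biosynthesis genes reached detection (median 43.3 CPM), as did all 21 terpenoid backbone genes (median 38.3 CPM).

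**Figure D2:**
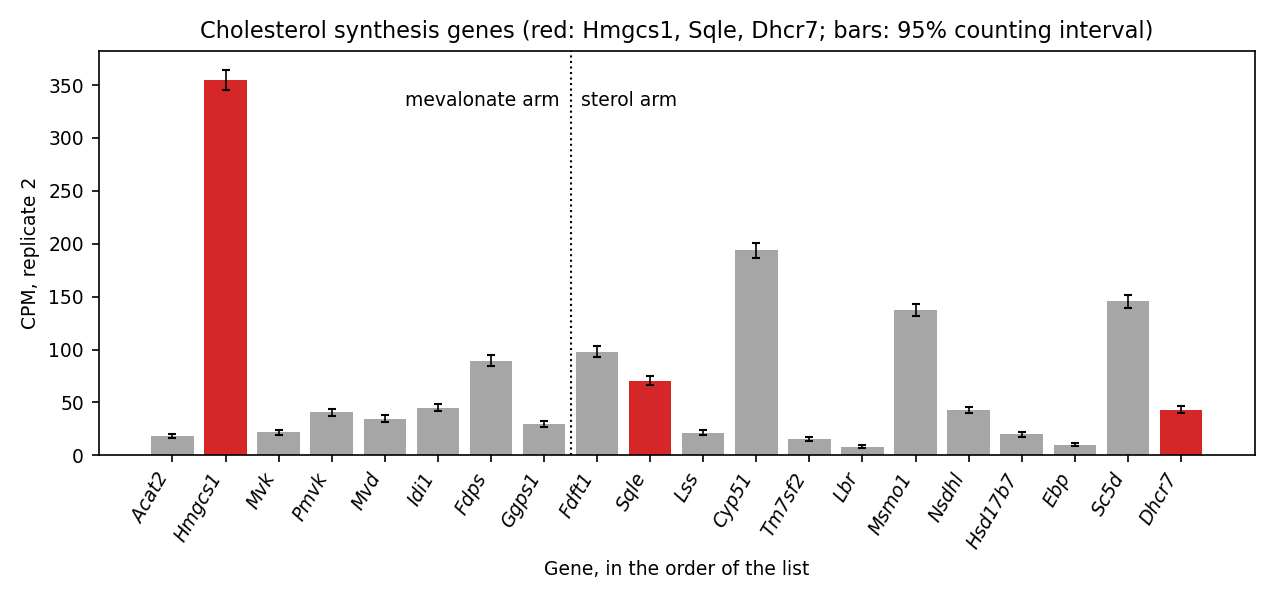
Bars give the CPM in replicate 2 of 20 cholesterol synthesis genes in the order of the list, with 95% counting intervals, and the dotted line divides the mevalonate arm from the sterol arm. Hmgcs1 is highest at 355 CPM, and Sqle (70.3 CPM) and Dhcr7 (43.3 CPM), also in red, stand below Cyp51, Msmo1 and Sc5d.

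Srebf2 (gene 300095), which encodes SREBP-2, had 3765 counts, or 244 CPM (236 to 252), and ranked 785. Its paralog Srebf1, whose products act mainly on fatty acid genes, had 1335 counts, or 86.6 CPM (82.0 to 91.4), which is 26.2% of the counts of the pair. Of 14 genes on the list of SREBP control, 13 were detected (77.0% of all genes were), and 4 reached 100 CPM (13.1% of all genes did). The median over the detected ones was 79.7 CPM. Scap, the escort that carries SREBP to the Golgi, had 160.1 CPM, and the Golgi protease gene Mbtps1 had 102 CPM. The retention factor genes Insig1 and Insig2 had 79.7 and 56.0 CPM. Of the liver X receptors, which sense oxysterols, Nr1h2 had 49.4 CPM and Nr1h3 had 1.75 CPM (1.15 to 2.55).

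Other lists held genes of sterol carriers and export, of lipoprotein uptake, and of sterol turnover and storage. Of 11 carrier and export genes matched by symbol, 10 were detected with a median of 129 CPM, and 6 reached 100 CPM. Of all genes of the table, 77.0% were detected and 13.1% reached 100 CPM. With the apolipoprotein C1 row, which has no symbol match, the median over 11 detected genes was 104.8 CPM. After Apoe, the highest was Clu (923 CPM), which encodes clusterin, another apolipoprotein of astrocytes. Lcat, whose enzyme esterifies cholesterol on particles, had 13.5 CPM. All 10 uptake genes reached detection (median 67.1 CPM), led by the sorting receptor gene Sort1 (711 CPM) and the Apoe receptor gene Lrp1 (522 CPM). Lrp2 (4.41 CPM), which encodes the receptor megalin, was the lowest. All 12 genes of sterol turnover and storage reached detection, and their median was 53.1 CPM. Cyp46a1, which forms the hydroxysterol that leaves the brain, led them with 255 CPM, ahead of Osbp (80.9 CPM), while the cholesterol hydroxylase gene Ch25h had 2.21 CPM and the mitochondrial sterol carrier gene Star had 0.973 CPM.

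**Figure D3:**
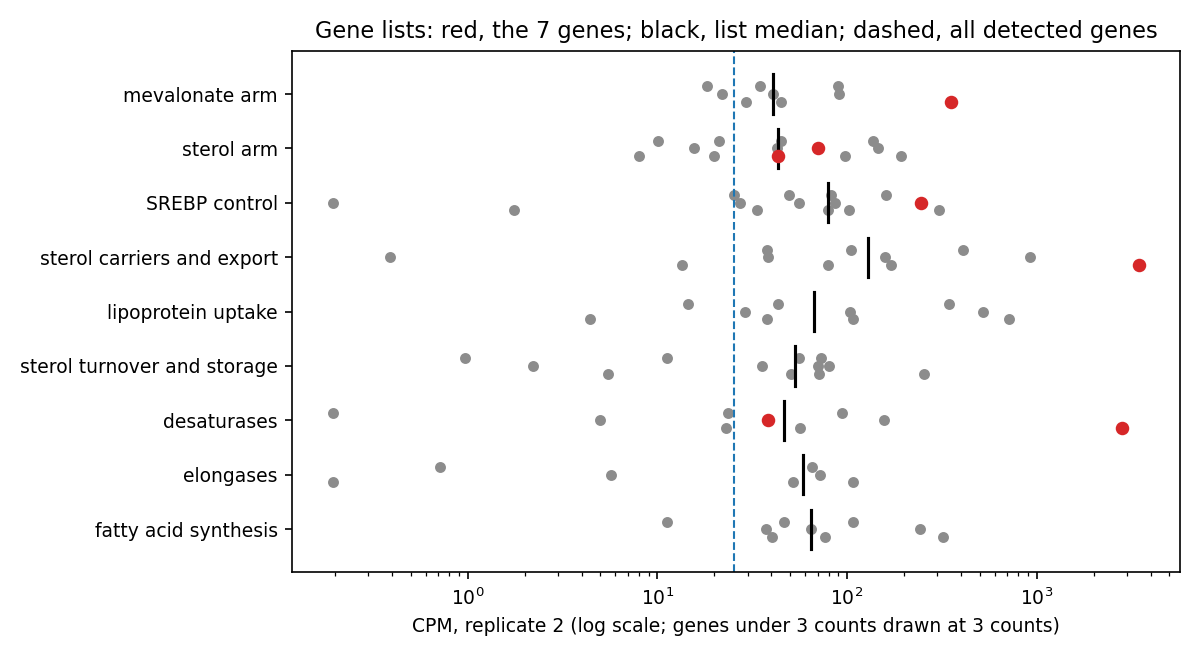
Each point is 1 gene of the list named on the vertical axis, placed by its CPM in replicate 2 on a log scale, with members in red and black bars for the median of detected genes. The dashed line is the median of all detected genes (25.2 CPM), and each of the 9 list medians, from 40.6 to 129 CPM, lies to its right. Broad annotation terms, not drawn, lay on either side. Medians over detected genes were 41.3 CPM for cytosol, 39.4 CPM for endoplasmic reticulum and 16.4 CPM for extracellular space. Whether the lists differ from such broad groups was not tested.

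In the annotation of the deposited rows, 6 of the 7 members carried the term endoplasmic reticulum, as did 924 genes in all. The term cholesterol biosynthetic process was on 3 members, Apoe, Dhcr7 and Hmgcs1, and on 29 genes in all. Of the 29 genes, 24 were detected (77.0% of all genes were), with a median of 44.5 CPM. Sqle was listed under cholesterol metabolic process, with Apoe and Srebf2. These terms describe the members and were not tested.

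None of the members could be compared between samples, but 12 genes of the lists were in the tables of replicates 2 and 3. Counts of replicate 3 were brought to the scale of replicate 2 with edgeR's TMM factor over the 243 genes in both tables that had 10 counts or more in each. Of these 243 genes, 10.3% differed by more than 1.5-fold, and 0 of the 12 list genes did. The median distance between the libraries was 1.06-fold over the list genes and 1.12-fold over all shared genes. Each list gene had 127 counts or more in both libraries, while shared genes were kept from 10 counts, where counting error is larger. The smaller distance of the list genes is therefore not read as a trait of theirs. So few genes, taken from the start of the alphabet, do not show how the members vary.

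Acat2, the first enzyme gene of the mevalonate arm, had 281 counts in replicate 2 and 308 in replicate 3, or 298 after scaling. The scaled ratio of replicate 3 to replicate 2 was 1.06 (95% exact binomial interval 0.899 to 1.25). This interval includes a ratio of 1. The cholesterol efflux transporter gene Abca1 had 590 and 643 counts (ratio 1.05, 0.941 to 1.18), and Abcg1, which passes cholesterol to lipoprotein particles, had 1615 and 1808 (ratio 1.08, 1.01 to 1.16). Acly had 3726 and 3679 counts (ratio 0.955, 0.912 to 1.00), and Acss2, an acetyl-CoA synthetase gene, had 1188 and 1213 (ratio 0.988, 0.911 to 1.07). The genes furthest apart were those of acetyl-CoA carboxylases, Acaca with 619 and 810 counts (ratio 1.27, 1.14 to 1.41) and Acacb with 173 and 127 (ratio 0.710, 0.560 to 0.898). Abca2 had 6328 and 7706 counts (ratio 1.18, 1.14 to 1.22), Abca7 had 585 and 535 (ratio 0.885, 0.785 to 0.996), Abca3 had 2440 and 2441 (ratio 0.968, 0.915 to 1.02) and Abcg4 had 1221 and 1292 (ratio 1.02, 0.946 to 1.11). The interval left out a ratio of 1 for 6 of the 12 list genes and for 102 of the 243 shared genes. Such intervals compare 2 libraries and cover counting error only.

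Aacs, which encodes a cytosolic enzyme that turns acetoacetate into a precursor of sterols and fatty acids, was the one list gene in all 3 tables. It had 792, 716 and 721 counts in replicates 1, 2 and 3. After scaling over the 7 genes that had 10 counts or more in every table, its values were 737, 762 and 732. Their mean was 743 ± 16.3 counts (SD, n = 3). Aacs is 1 of these 7 genes and was partly scaled to itself, so this SD may understate the spread between samples.

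**Figure D4:**
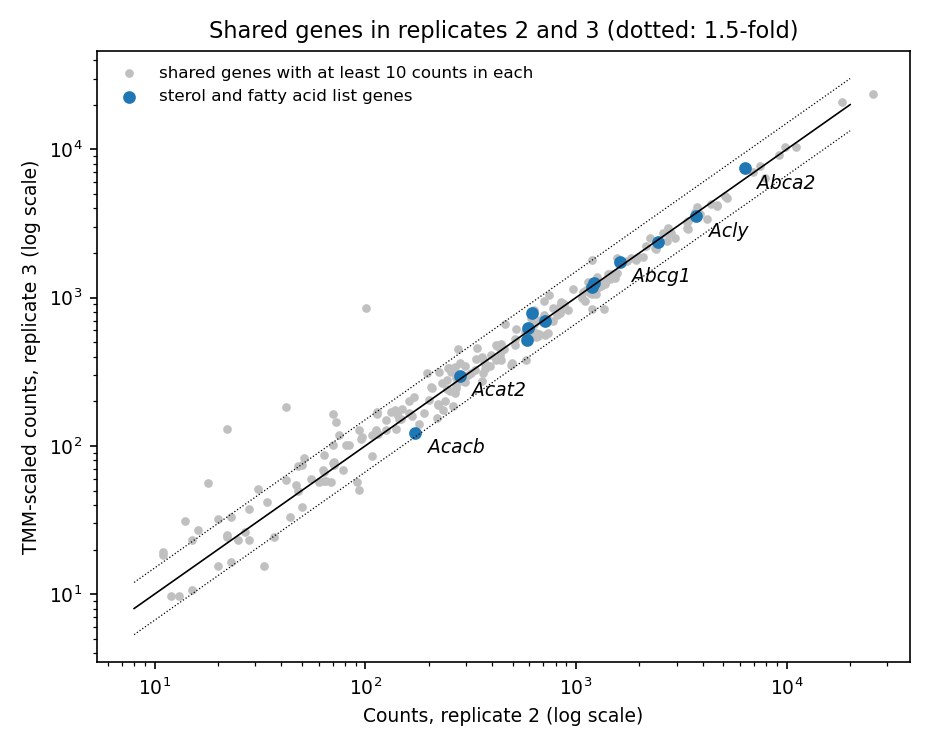
The horizontal axis gives counts in replicate 2 and the vertical axis TMM-scaled counts in replicate 3, both on log scales, for 243 shared genes in grey and the 12 list genes in blue. The solid line is equality and the dotted lines mark 1.5-fold, and all 12 blue points lie between the dotted lines.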

How the data were processed

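Hippocampal RNA was sequenced from 3 samples of 1 group. Per the labels' protocols, RNA came from about 100 mg of tissue with TRIzol, and mRNA was captured on beads. The submitters' processing notes list HISAT2, Bowtie2, HTSeq, StringTie, Cufflinks, DESeq, Trimmomatic and SAMtools, with no roles. Build, counting rules and strand setting: not given in the sources used here. The authors deposited raw, whole-number counts for each gene, 1 file per sample. Symbols came from RefSeq GRCr8 by gene identifier, for 17515 of 18560 genes. The tables of replicates 1 and 3 end after 12 and 307 genes, so their totals, 11402 and 298642 counts, are not depths.

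CPM used the total of replicate 2, 15417009 counts, with 95% exact Clopper-Pearson intervals. Reads carry no molecular identifiers and are not independent, so intervals and limits cover counting error only. A count of 0 allows 3 counts, or 0.195 CPM. Detection meant at least 10 counts. List medians were taken on log2(CPM + 1) over detected genes. Replicates were scaled with edgeR 4.0.16 (R 4.3.3), checked on simulated data, and other steps ran in Python 3.11.15. With 1 group no condition was tested. The members and the 9 functional and 8 marker lists were chosen with earlier results of these data known. Named were all members, the 2 highest and 2 lowest genes of each functional list, those under 10 counts and those in several tables. Other genes named, and the gene families, were chosen after their values were seen. No gene was named for a pattern like a member's, since no 6 samples hold both. Alternatives were other minimums, totals, pseudocounts, list definitions and scalings. A few genes on these lists are not reported here by name. Levels per length were planned, but no transcript lengths were used here.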

Additional observations from a re-analysis of the deposited data

How the results depend on the processing

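All 7 members stayed detected at minimums of 1 and 50 counts. Without the 10 highest genes in the total (3.27% of counts), Apoe came to 3600.4 CPM, Scd2 to 2899 CPM, Hmgcs1 to 367 CPM and Srebf2 to 252.5 CPM. These values lay above their counting intervals, just above for Hmgcs1 and Srebf2. The other members stayed inside theirs. Every gene was multiplied by the same factor, 1.03, so whether a value left its interval depends only on its count. Apoe and Scd2 are themselves among the genes left out of that total. With the total of protein-coding genes all 7 stayed inside. With undetected members counted, the list median was 66.9 CPM for SREBP control, 104.8 CPM for sterol carriers and export, 38.3 CPM for desaturases and 52.2 CPM for elongases. With the apolipoprotein C1 row added, a choice made after seeing the data, the median of sterol carriers and export was also 104.8 CPM. With deposited pathways in place of 2 lists, biosynthesis of unsaturated fatty acids (26 rows, for desaturases) had a median of 39.6 CPM. Fatty acid biosynthesis (12 rows, for fatty acid synthesis) had 85.0 CPM. Both pathways hold genes that the lists do not, so these are medians of different gene sets. The share of shared genes past 1.5-fold between replicates was 10.3%, and 19.3% with no filter on low counts. It was 31.3% past 1.2-fold and 2.88% past 2-fold. DESeq2 size factors gave 10.3%, and scaling to the sum of shared genes gave 10.7%. Leaving out 1 sample gave 0% to 14.3%, since only 7 genes had enough counts once replicate 2 or 3 was left out: 14.3% without replicate 2 and 0% without replicate 3. Without replicate 2 no member has a value, and leaving out replicate 1 or 3 changes none. No paired analysis was possible because there is only 1 group. Levels per length were not run, nor was a comparison table of the authors'. What depth limits here are the genes under 10 counts, such as Apoa1 and Scd4.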
